A study of Mus musculus with 18 samples.

Results

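Genes of the liver's endothelial cells were followed in liver RNA of ovariectomized obese mice. They are 40 genes chosen by symbol, and both count tables hold all 40 among 40840 genes. Of these, 12 mark sinusoidal endothelium, 25 are shared by endothelial cells of most vessels (pan-endothelial genes) and 3 encode Wnt pathway ligands that liver endothelium secretes. The samples were livers of female mice on the C57BL/6 background, and every mouse, controls included, had been ovariectomized. In the diet-induced obesity (DIO) model, wild-type mice were fed a diet in which fat supplied 45% of the calories and cholesterol made up 0.2%. In the ob/ob model, leptin-deficient mice ate a normal diet. Mice received vehicle, 17β-estradiol (E2) or Pathway Preferential Estrogen-1 (PaPE-1) from an implanted minipump for 6 weeks, with vehicle being a mix of DMSO, ethanol and saline. The daily dose per kg of body weight was 5 µg of E2 or 300 µg of PaPE-1. PaPE-1 is a synthetic ligand of the estrogen receptor ERα, for which its affinity is below that of E2. Each of the 6 groups had 3 libraries, 18 in all, although the sample records speak of 2 per group. Each compound was given at a single dose, and the doses differed. The ages of the mice were not given in the sources used here. Total counts ran from 16651616 to 21703791 per library for DIO and from 10470665 to 17021370 for ob/ob.

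The liver sinusoid is lined by an unusual endothelium that is perforated by open fenestrae and lacks a dense basement membrane. Its cells clear waste proteins, immune complexes and hyaluronan from blood through scavenger receptors. They also instruct their neighbours, because Wnt ligands and R-spondin from endothelium near the central vein set the pericentral program of hepatocytes. Estrogen receptors are present in vascular endothelium, where estradiol is known for its effects on nitric oxide production and vessel growth.

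Reads were sufficient to test all 40 genes in both models, among 13884 genes tested in the DIO model and 13433 in the ob/ob model. Levels per gene length were expressed as RPKM, which is CPM, the count scaled to 1 common library size, divided by the gene's length in kilobases. In ob/ob vehicle liver the plasmalemma vesicle protein gene Plvap had the highest level, 38.4 ± 3.41 RPKM (SD, n = 3). The water channel gene Aqp1 was next at 19.5 ± 4.05 RPKM, and Wnt9b was lowest at 0.253 ± 0.138 RPKM. In DIO vehicle liver Aqp1, at 25.98 ± 0.962 RPKM, and Plvap, at 24.9 ± 1.96 RPKM, differed by less than the SD of Plvap. Wnt9b was again lowest at 0.173 ± 0.0773 RPKM. With treatment Plvap stayed highest in ob/ob liver, at 46.4 ± 1.13 RPKM with E2 and 31.3 ± 6.98 RPKM with PaPE-1. Aqp1 was highest in DIO liver with E2, at 34.3 ± 7.13 RPKM. With PaPE-1 it was at 27.1 ± 2.11 RPKM, level with Fcgr2b at 27.1 ± 4.32 RPKM. Wnt9b was lowest in all 6 groups. Every defining gene of liver sinusoidal endothelium on the list, among them Clec4g, Stab2, Lyve1 and Gpr182, was present in all 18 libraries. Some members are also known from other liver cells, namely Mrc1, Fcgr2b, Stab1 and Lyve1 in macrophages, Aqp1 in bile duct cells and Gata4 in stellate cells.

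Most of these genes rose with E2 in ob/ob liver. Of the 40 members, 24 rose at an adjusted p under 0.05 in edgeR's quasi-likelihood test and 0 fell, where 9.81% of all genes tested rose and 12.3% fell. Wnt9b was the 1 member that was lower at an unadjusted p under 0.05, against 19.9% of all genes. The 3 E2 libraries lay above all 3 vehicle libraries for 27 of 40 members and below for 0, which was the case for 20.7% and 20.8% of all genes. The median log2 fold change of the members was 0.62, and that of all genes tested was 0.01. By class, 9 of 12 sinusoidal genes rose with a median of 0.84, 15 of 25 pan-endothelial genes rose with a median of 0.58, and 0 of 3 Wnt ligand genes passed in either direction. In RNA of whole liver, more endothelial cells and more RNA of these genes per cell cannot be told apart.

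**Figure D1:**
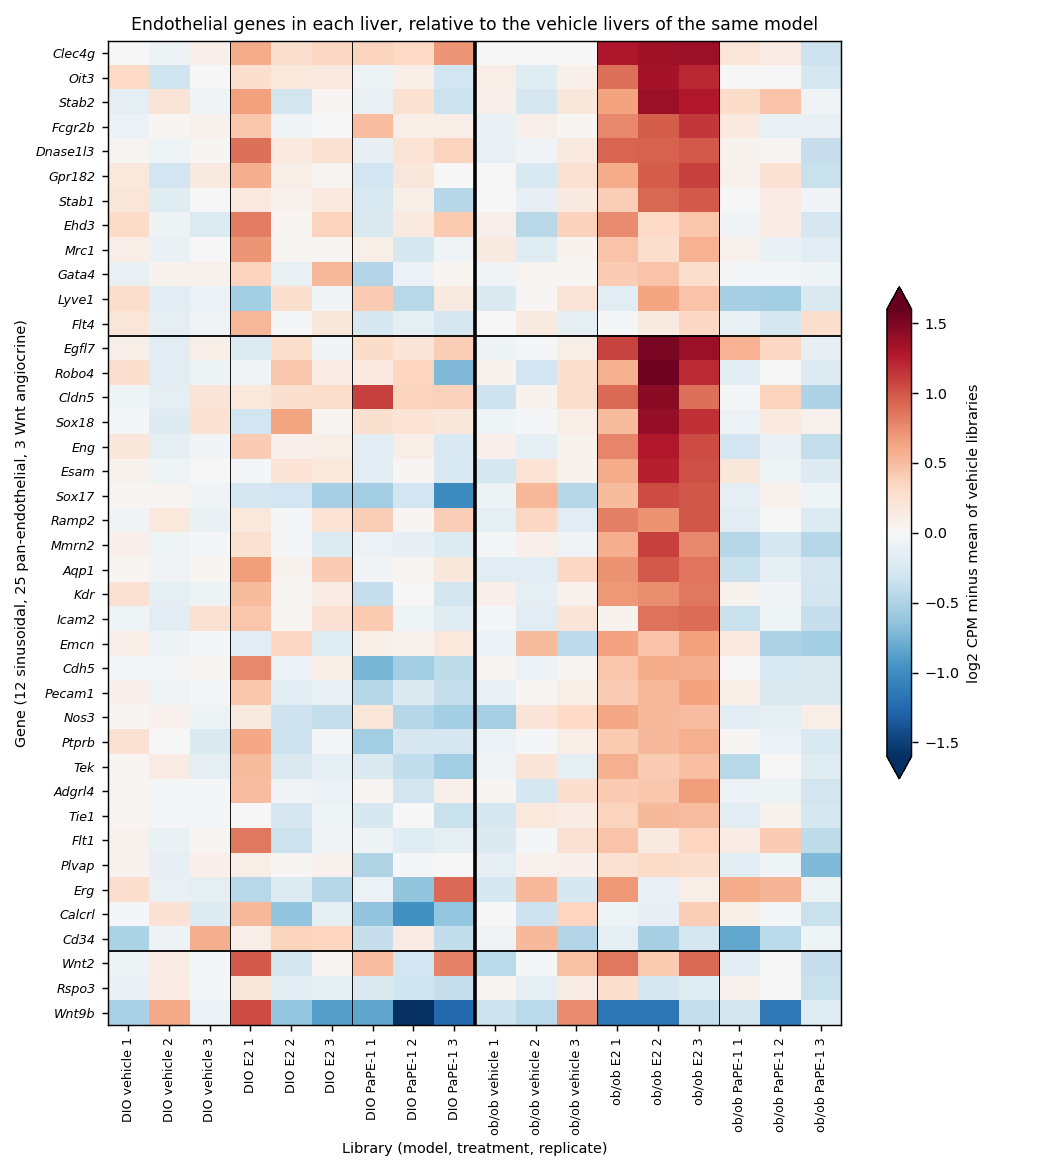
Heat map of the 40 genes (rows, grouped by class and ordered by the E2 change in ob/ob liver) in 18 libraries (columns). Colour gives log2 CPM minus the mean of the 3 vehicle libraries of the same model, with red above and blue below. The 3 ob/ob E2 columns are red for most rows, while the Wnt9b row is blue there, and the first DIO E2 column is redder than the other DIO E2 columns.

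Promoter windows from RefSeq, of the build GRCm38.p6, were read for the members because 24 of them moved in 1 direction in ob/ob liver with E2. The counts were made on GRCm39, and no coordinates were carried between the builds. A window was at hand for 23 of 40 members. The others were Lyve1, Gata4, Oit3, Gpr182, Dnase1l3, Rspo3, Pecam1, Cdh5, Esam, Icam2, Ptprb, Plvap, Mmrn2, Sox18, Sox17, Nos3 and Ramp2. The 250 bases upstream of the start were searched on both strands for short motifs. Where a gene had several starts, the most upstream one was used. The letters were AGATAA for GATA factors, CCGGAAG or else CAGGAAG for ETS factors, AACAAT for SOX factors, and GGTCANNNTGACC for the estrogen receptor. CAGGAAG was in 7 of 23 member windows and in 10.5% of 27025 windows of the same length. Of these 7 members, Egfl7, Robo4, Stab1 and Mrc1 rose with E2 in ob/ob liver, and Calcrl, Cd34 and Emcn did not pass. Of the members whose window lacks CAGGAAG, Aqp1, Cldn5, Clec4g, Eng, Fcgr2b, Kdr, Stab2, Tek and Tie1 also rose. Adgrl4, Ehd3, Erg, Flt1, Flt4, Wnt2 and Wnt9b did not pass. The rise was thus found in members with and without these letters. AACAAT was in 3 of 23 member windows and in 9.62% of all windows. In the same order AGATAA was in 0 and in 10.2%, CCGGAAG in 0 and in 7.07%, and GGTCANNNTGACC in 0 and in 0.0629%. The 27025 windows were those of all genes at hand, not only of genes tested in liver. Median GC content was 57.2% in the member windows and 52.0% in all windows, and its part in these shares was not tested. A match describes the letters and is not a binding site, and a missing match says only that these letters are not in this window. Windows of 3 genes that rose with E2, with CAGGAAG on either strand in capitals, are shown beside that of Clec4g, the gene with the smallest p, which has no match. They lie at chr2:26580833-26581082 (plus strand) for Egfl7, chr9:37401722-37401971 (plus strand) for Robo4, chr14:31168642-31168891 (minus strand) for Stab1 and chr8:3720652-3720901 (minus strand) for Clec4g, and each runs 5′ to 3′ towards the start.
Egfl7: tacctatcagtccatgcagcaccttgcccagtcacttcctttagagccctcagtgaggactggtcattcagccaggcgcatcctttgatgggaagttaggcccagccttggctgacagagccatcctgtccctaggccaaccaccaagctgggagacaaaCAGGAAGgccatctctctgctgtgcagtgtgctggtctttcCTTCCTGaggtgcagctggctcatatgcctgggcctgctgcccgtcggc
Robo4: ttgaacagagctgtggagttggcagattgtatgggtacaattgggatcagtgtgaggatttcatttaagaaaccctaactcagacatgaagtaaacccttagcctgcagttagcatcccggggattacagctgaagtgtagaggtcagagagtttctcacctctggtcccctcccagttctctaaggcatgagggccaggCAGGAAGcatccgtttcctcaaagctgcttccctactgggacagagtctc
Stab1: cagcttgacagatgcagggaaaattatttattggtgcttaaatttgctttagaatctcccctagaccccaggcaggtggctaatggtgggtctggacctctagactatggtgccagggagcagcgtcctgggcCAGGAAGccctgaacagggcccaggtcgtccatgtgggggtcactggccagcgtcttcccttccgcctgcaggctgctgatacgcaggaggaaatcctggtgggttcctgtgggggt
Clec4g: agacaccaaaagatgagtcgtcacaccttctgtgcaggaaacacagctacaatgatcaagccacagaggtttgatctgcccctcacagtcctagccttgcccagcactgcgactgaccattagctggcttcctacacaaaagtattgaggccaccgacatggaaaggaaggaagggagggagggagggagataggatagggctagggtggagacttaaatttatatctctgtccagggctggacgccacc

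Among sinusoidal genes, Clec4g, a C-type lectin of these cells, changed most clearly. Its CPM was 26.2, 26.5 and 26.4 in the 3 vehicle livers and 65.04, 67.8 and 68.2 in the 3 E2 livers of ob/ob mice. The E2 livers were all well above the vehicle livers, and within each group the livers were close together. The log2 fold change was 1.34 (2.54-fold, SE 0.13, edgeR adjusted p = 0.000374). Oit3, a secreted protein made mainly in liver, had 14.8, 11.96 and 14.54 CPM with vehicle and 25.4, 34.7 and 31.7 CPM with E2. Here too the groups stood apart, and the log2 fold change was 1.15 (SE 0.15, edgeR adjusted p = 0.00125). Fcgr2b, the inhibitory Fc receptor that takes up immune complexes, measured 18.5, 21.03 and 20.2 CPM and 33.9, 38.9 and 43.5 CPM in the same groups. All E2 livers exceeded all vehicle livers, with a log2 fold change of 0.97 (SE 0.13, edgeR adjusted p = 0.0014).

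The other sinusoidal genes that rose were the hyaluronan and scavenger receptors Stab2 (log2 fold change 1.12) and Stab1 (0.79), the secreted nuclease Dnase1l3 (0.95), the chemokine-binding receptor Gpr182 (0.88), the mannose receptor Mrc1 (0.43) and the transcription factor Gata4 (0.38). Over 15 other ways of analysis, left-out libraries included, Mrc1 kept the call in 12 and Gata4 in 8. The remaining members of the class did not pass. The endocytic protein gene Ehd3 had a log2 fold change of 0.47 (SE 0.19), the hyaluronan receptor gene Lyve1 0.34 (SE 0.19) and the VEGF-C receptor gene Flt4 0.15 (SE 0.15). The interval of Flt4, -0.17 to 0.48 at 95%, ended below the interval of Clec4g, 1.07 to 1.62. The sinusoidal genes thus ranged from 0.15 to 1.34 among themselves.

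**Figure D2:**
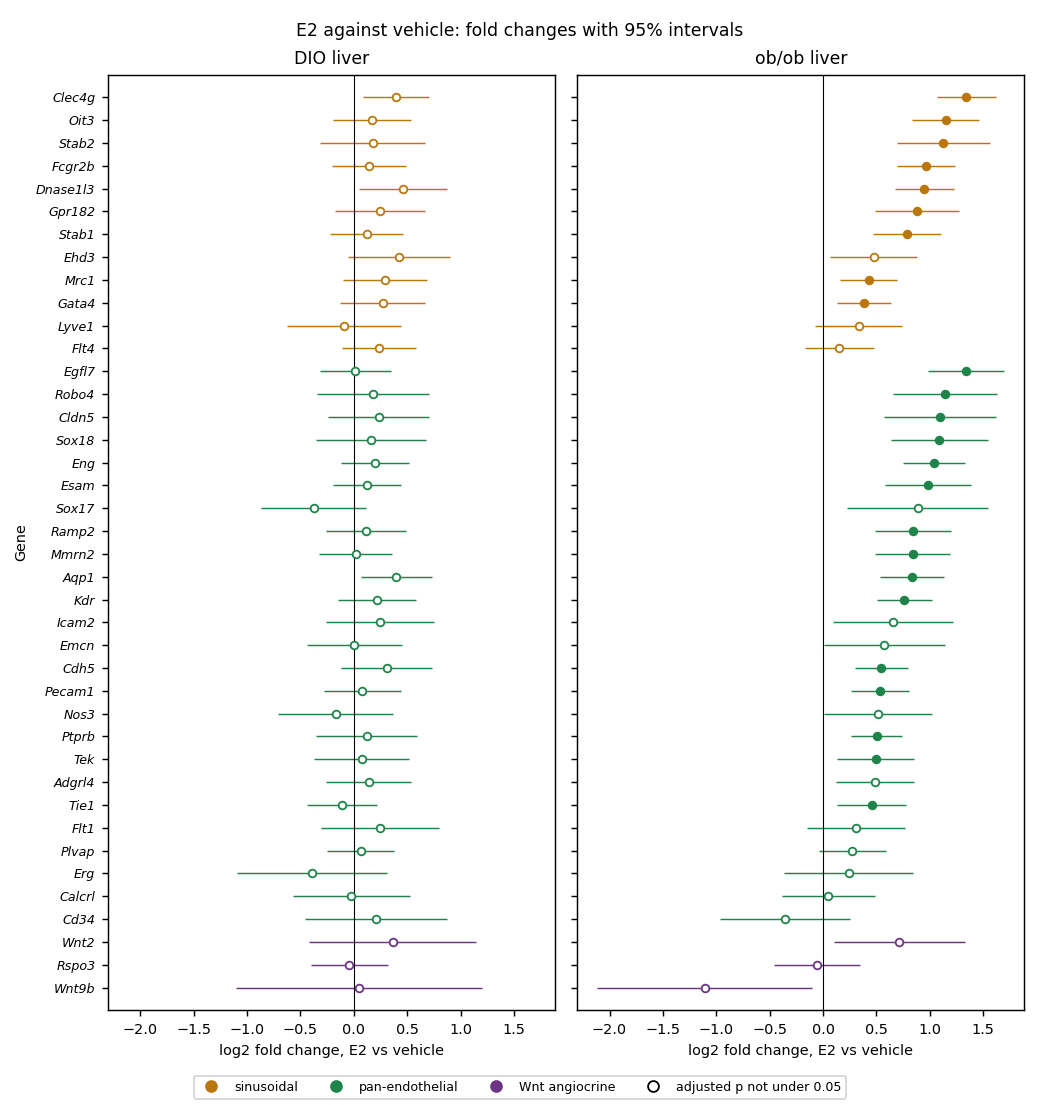
Log2 fold change of each gene with E2 against vehicle, with its 95% interval, in DIO liver (left) and ob/ob liver (right). Filled points have an adjusted p under 0.05 in edgeR's quasi-likelihood test. On the right, 24 filled points lie above 0, and on the left every point is open.

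Receptors for vascular growth factors followed the same direction, with 4 of 5 rising. Eng, the endoglin coreceptor of BMP and TGF-β ligands, was at 57.7, 49.3 and 56.7 CPM with vehicle and 93.3, 132 and 112 CPM with E2. The lowest E2 liver was far above the highest vehicle liver, and the log2 fold change was 1.04 (SE 0.14, edgeR adjusted p = 0.00125). Kdr, the main VEGF receptor, had 24.3, 20.8 and 24.2 CPM and 37.4, 38.7 and 41.5 CPM. Its groups were separate as well, at a log2 fold change of 0.76 (SE 0.12, edgeR adjusted p = 0.00276). Tie1, a partner of the angiopoietin receptor, measured 9.73, 13.4 and 12.9 CPM and 15.3, 17.1 and 16.9 CPM. The E2 livers were higher without overlap, and the smaller log2 fold change of 0.45 (SE 0.15) passed closely (edgeR adjusted p = 0.0454). The angiopoietin receptor gene Tek also passed closely at 0.49 (SE 0.17, edgeR adjusted p = 0.0494), and it lost the call in 4 of the 6 other ways of analysis, among them DESeq2. With a library left out, Tek kept the call in 1 of 9 fits and Tie1 in 4 of 9. The gene of another VEGF receptor, Flt1, was at 0.31 (SE 0.22) and did not pass.

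Of 13 genes grouped as junction and surface proteins, with the secreted Egfl7 and the matrix protein Mmrn2 among them, 8 rose in ob/ob liver with E2. Egfl7, a secreted regulator of vessel tubes, had 12.9, 13.4 and 14.54 CPM with vehicle and 28.99, 39.3 and 35.3 CPM with E2. The E2 livers were far above the vehicle livers of this gene, and the log2 fold change was 1.34 (2.53-fold, SE 0.17, edgeR adjusted p = 0.00107). Esam, a tight junction adhesion molecule, measured 7.65, 10.8 and 9.69 CPM and 14.1, 22.3 and 19.2 CPM. The groups did not overlap, at a log2 fold change of 0.99 (SE 0.19, edgeR adjusted p = 0.00507). Mmrn2, an endothelial matrix protein, was at 7.07, 7.68 and 6.97 CPM and 10.9, 15.6 and 12.4 CPM. The vehicle livers were tightly grouped below the E2 livers, and the log2 fold change was 0.84 (SE 0.16, edgeR adjusted p = 0.00573). The guidance receptor gene Robo4 (1.14), the claudin gene Cldn5 (1.10), the VE-cadherin gene Cdh5 (0.54), the adhesion molecule gene Pecam1 (0.53) and the phosphatase gene Ptprb (0.50) rose too.

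In the same role group, 5 genes did not pass. The log2 fold changes were 0.66 (SE 0.26) for the adhesion molecule gene Icam2, 0.58 (SE 0.27) for the endomucin gene Emcn, 0.49 (SE 0.17) for the adhesion receptor gene Adgrl4, 0.27 (SE 0.15) for Plvap and -0.36 (SE 0.29) for Cd34. Plvap, the gene of fenestral diaphragms, which sinusoidal endothelium largely lacks, measured 73.03, 85.3 and 85.8 CPM with vehicle and 95.7, 100.4 and 99.001 CPM with E2. The E2 livers were above the vehicle livers without overlap, although the step was small. Cd34, a sialomucin of capillary endothelium, was the 1 pan-endothelial gene with a value below 0.

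Among transcription factors, Sox18, which acts in arterial and lymphatic development, rose. It had 5.45, 5.59 and 6.15 CPM with vehicle and 8.19, 15.4 and 13.04 CPM with E2. The vehicle livers were close together and all E2 livers were higher, at a log2 fold change of 1.09 (SE 0.21, edgeR adjusted p = 0.00542). Its relative Sox17 was at 1.49, 2.36 and 1.12 CPM and 2.31, 3.41 and 3.28 CPM. The lowest E2 liver overlapped the vehicle livers, and the log2 fold change of 0.89 (SE 0.31) missed the threshold (edgeR adjusted p = 0.0544). Erg, an ETS factor that maintains endothelial identity, measured 5.19, 8.99 and 5.200 CPM and 10.2, 5.71 and 6.76 CPM, with overlapping groups and a log2 fold change of 0.24 (SE 0.28).

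Genes for a channel, an enzyme and a peptide receptor gave 2 of 4 increases. Aqp1 was at 47.2, 47.3 and 66.6 CPM with vehicle and 87.4, 105 and 95.7 CPM with E2. The groups were apart, at a log2 fold change of 0.83 (SE 0.14, edgeR adjusted p = 0.00349). Ramp2, the partner that makes the calcitonin-like receptor respond to adrenomedullin, had 7.13, 10.04 and 7.09 CPM and 14.1, 13.2 and 15.99 CPM. It rose by 0.84 (SE 0.17) on the log2 scale (edgeR adjusted p = 0.00589). The receptor gene itself, Calcrl, was at 9.79, 7.77 and 12.5 CPM and 9.38, 8.93 and 12.98 CPM, fully overlapping, with a log2 fold change of 0.05 (SE 0.20). The endothelial nitric oxide synthase gene Nos3 measured 2.400, 4.102 and 4.43 CPM and 5.48, 5.12 and 5.02 CPM. Its E2 livers were all higher, but the log2 fold change of 0.52 (SE 0.24) did not pass (edgeR adjusted p = 0.124).

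The 3 Wnt pathway ligands had no common direction. Wnt2 was at 1.43, 1.92 and 2.78 CPM with vehicle and 3.63, 2.69 and 3.81 CPM with E2 in ob/ob liver, with a log2 fold change of 0.71 (SE 0.29, edgeR adjusted p = 0.086). Wnt9b, at 1.04, 0.960 and 2.36 CPM and 0.528, 0.525 and 1.003 CPM, had a log2 fold change of -1.11 (SE 0.47, edgeR adjusted p = 0.101). Both genes had overlapping groups, and Wnt9b rested on few reads. Rspo3, the R-spondin that amplifies Wnt signals, measured 7.98, 6.98 and 8.45 CPM and 9.38, 6.43 and 6.76 CPM and had a log2 fold change of -0.06 (SE 0.19). Of 15 hepatocyte genes known to depend on Wnt signals, 3 rose and 0 fell with E2 in ob/ob liver, where 9.81% of all genes tested rose. Their median log2 fold change was 0.30. The mean log2 CPM of the 15 genes, relative to the vehicle livers, was 0.38, 0.24 and 0.42 with E2. With vehicle it was 0.05, -0.37 and 0.32, so the groups overlapped. Lect2 (0.79), Notum (0.62) and the ammonium transporter gene Rhbg (1.09) were the 3 that rose, and Nkd1 was at 0.57 (SE 0.22) without passing.

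**Figure D3:**
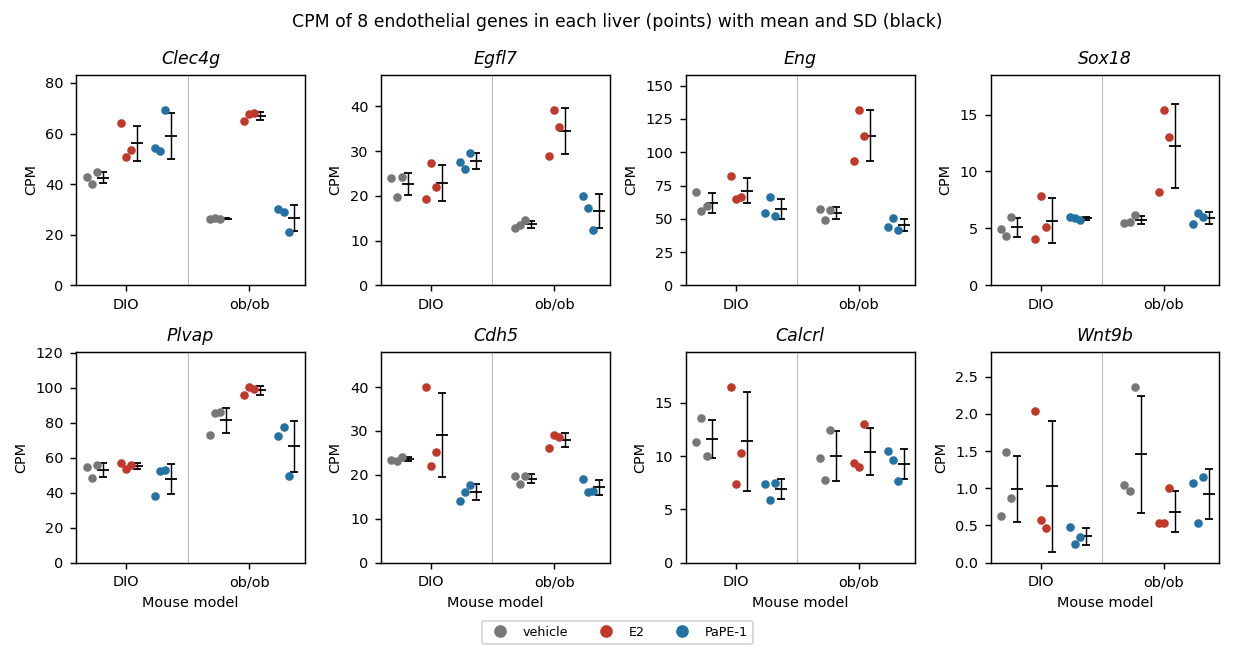
CPM of 8 genes in every library (points, coloured by treatment) with the group mean and SD in black, for DIO liver (left of each panel) and ob/ob liver (right). For Clec4g, Egfl7, Eng and Sox18 the 3 ob/ob E2 points lie above all ob/ob vehicle and PaPE-1 points, while the Calcrl and Wnt9b points of these groups overlap.

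A score of the 40 genes, the mean log2 CPM relative to the vehicle livers of the model, was -0.09, 0.00 and 0.09 in the ob/ob vehicle livers and 0.49, 0.66 and 0.70 in the ob/ob E2 livers. The first E2 liver had the lowest score of its group and was still above every vehicle liver. For the sinusoidal genes alone the E2 scores were 0.58, 0.81 and 0.84, and for the pan-endothelial genes they were 0.51, 0.70 and 0.70. The median log2 fold change of sinusoidal genes exceeded that of pan-endothelial genes by 0.26, a difference that ranged from 0.15 to 0.36 over the other settings and left-out libraries. The classes overlapped widely, since pan-endothelial genes ran from -0.36 to 1.34 and sinusoidal genes from 0.15 to 1.34.

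Markers of other liver cells moved with E2 in ob/ob liver as well, where 9.81% of all genes tested rose and 12.3% fell. Of 12 Kupffer cell and macrophage markers, 7 rose and 0 fell, and their summed level was 678 to 949 CPM with E2 and 435 to 552 CPM with vehicle. Clec4f, a Kupffer cell lectin, rose by 1.38, the complement genes C1qa and C1qb by 1.13 and 0.87, and the growth factor receptor gene Csf1r by 0.64 on the log2 scale. Neutrophil lineage markers rose in 8 of 8 tested genes, and their summed level was 92.6 to 353 CPM with E2 against 7.39 to 8.12 CPM with vehicle. With vehicle, the granule genes Ngp, at 0.519, 0 and 0.236 CPM, and Mpo, at 0.259, 0.0873 and 0.118 CPM, were at or near 0. Camp, Elane and Ltf were at most at 0.130, 0.259 and 0.768 CPM there. These granule genes entered the test through the E2 livers, so that their rise was largely fixed by the filter on low counts. S100a8, S100a9 and Csf3r were above 1 CPM in every vehicle liver. Of 11 hepatocyte markers tested 6 rose and 1 fell, among them Apoa1 with a log2 fold change of 1.07, with sums of 149495 to 165979 CPM and 89694 to 119111 CPM. Stellate cell markers rose in 1 of 10 genes and fell in 0, with sums of 707 to 729 CPM and 604 to 679 CPM.

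Of the remaining marker lists, 1 of 6 lymphocyte genes tested rose, the B cell gene Ms4a1, and 0 of 8 cholangiocyte, 0 of 4 smooth muscle and 0 of 4 erythroid genes passed in either direction in edgeR, nor did any of them have an unadjusted p under 0.05. Ms4a1 was at 0.389, 0.0873 and 0.0591 CPM with vehicle and likewise entered the test through the E2 livers. The smooth muscle marker Cnn1 was at 0.0649, 0.0873 and 0.0591 CPM in ob/ob vehicle livers, that is near 0. The 6 members also known from macrophages, bile ducts or stellate cells were then left out, a choice made after the values were seen. Of the other 34 members, 19 rose and 0 fell with E2, where 9.81% of all genes tested rose and 12.3% fell. Their median log2 fold change was 0.62. This count rests on the same livers and cannot show which cells the RNA came from. Blood cells other than macrophages were not considered in leaving out the 6, so the 34 members may include genes that other cells express. The part of these other cells in the increase of the endothelial genes was not tested. The estrogen receptor gene Esr1 rose in ob/ob liver by 0.75 (SE 0.22) on the log2 scale (edgeR adjusted p = 0.0275), and Esr2 was at 0 CPM in all 3 vehicle livers.

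**Figure D4:**
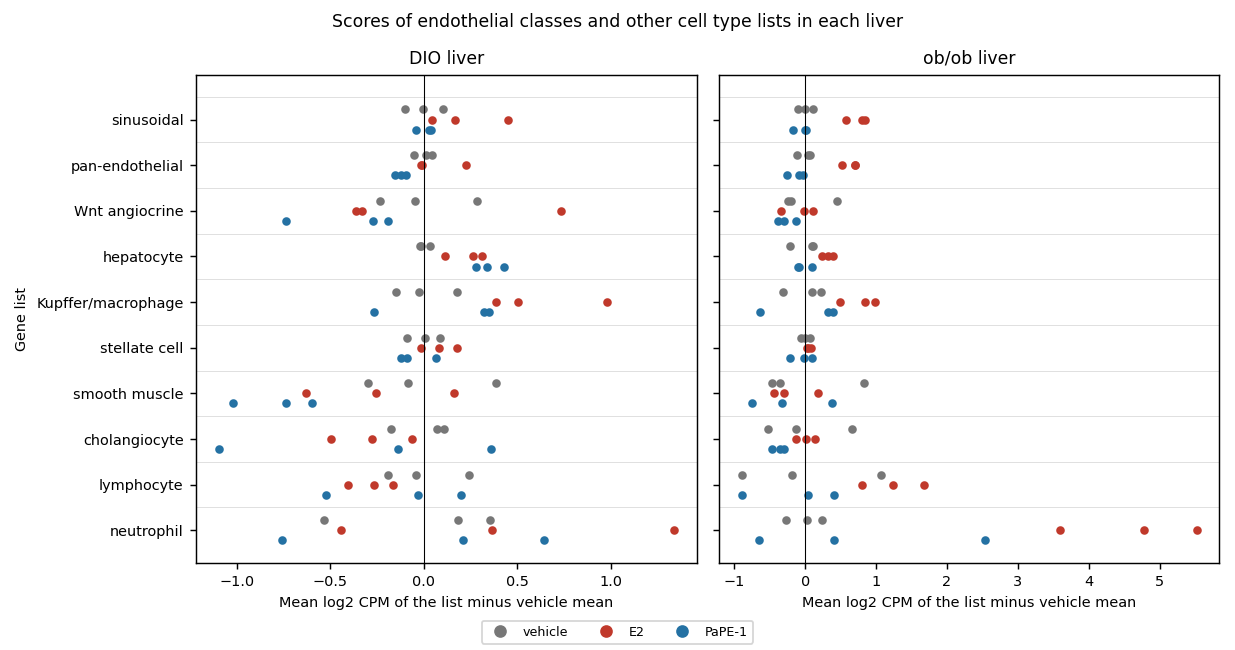
Scores of the endothelial classes and of other cell type lists in every library, as mean log2 CPM of the list minus the mean of the vehicle libraries of the model, coloured by treatment. The horizontal scales of DIO (left) and ob/ob (right) differ. In ob/ob liver the E2 points of the sinusoidal, pan-endothelial, Kupffer cell and neutrophil lists lie to the right of all vehicle points. Several genes of the neutrophil list were at or near 0 CPM with vehicle.

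No change of these genes was called with PaPE-1 in ob/ob liver. Of the 40 members 0 passed in either direction by edgeR, DESeq2 or limma voom, where 0% of all genes passed in edgeR. Without adjustment, at p under 0.05, 0 members were higher and 2 were lower, against 0.998% and 1.65% of all genes. No member had all PaPE-1 livers above all vehicle livers and 2 had them below, compared with 2.88% and 2.9% of all genes. The median log2 fold change was -0.10, with 7 members above 0 and 33 below, and it was -0.046 without the third ob/ob vehicle library. The score of all members was -0.06, -0.04 and -0.24 in the 3 PaPE-1 livers, of which the third was below every vehicle liver.

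The 2 lower genes at an unadjusted p were Mmrn2 and Lyve1. Mmrn2 had 5.23, 5.92 and 5.25 CPM with PaPE-1, all below the vehicle values given above, for a log2 fold change of -0.40 (SE 0.17, edgeR adjusted p = 1). Lyve1 had 13.2, 12.97 and 16.3 CPM with PaPE-1 and 16.3, 19.5 and 22.2 CPM with vehicle, which met without overlapping, for a log2 fold change of -0.44 (SE 0.19). Clec4g, which E2 raised, was at 30.1, 28.97 and 20.9 CPM with PaPE-1. Its log2 fold change of 0.01 (SE 0.13) had a 95% interval of -0.27 to 0.29. Egfl7, at 19.99, 17.2 and 12.5 CPM, had a log2 fold change of 0.28 with an interval of -0.09 to 0.64. Eng measured 44.01, 50.3 and 41.6 CPM, with 1 liver inside the vehicle range and the others below it, at -0.27 with an interval of -0.56 to 0.02. A p that misses the threshold does not show that these levels equalled those of vehicle.

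**Figure D5:**
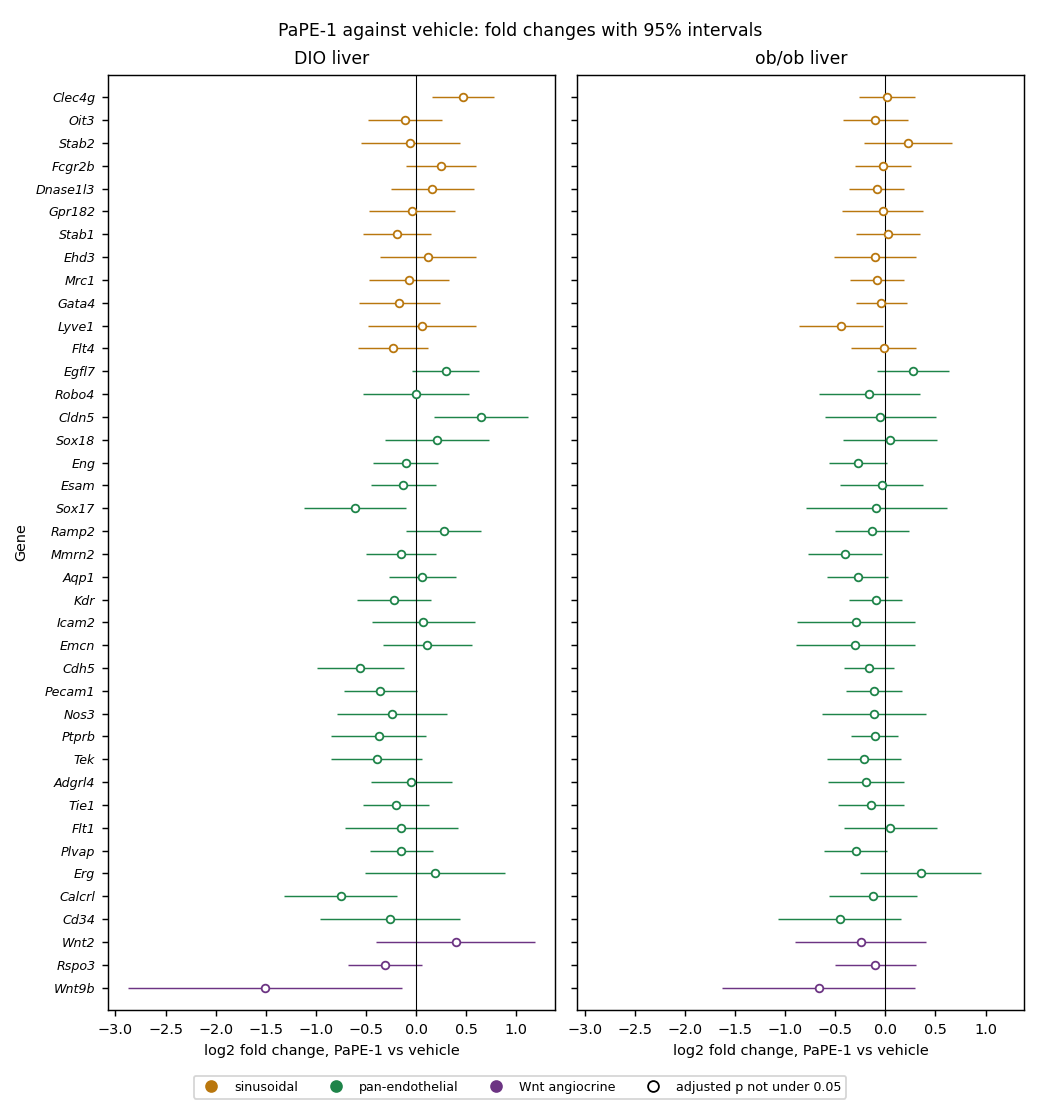
Log2 fold change of each gene with PaPE-1 against vehicle, with its 95% interval, in DIO liver (left) and ob/ob liver (right). Every point is open, since 0 of 40 genes had an adjusted p under 0.05 in either model in edgeR's quasi-likelihood test. Wnt9b has the widest interval in both panels.

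Set directly against E2 in ob/ob liver, at the differing doses above, PaPE-1 livers had lower levels of most members. In this comparison 31 of 40 members were lower and 0 higher at an adjusted p under 0.05 in edgeR, where 7.45% of all genes tested were lower and 10% higher. No member was higher at an unadjusted p under 0.05, against 18.1% of all genes. For 33 members the 3 PaPE-1 livers lay below the 3 E2 livers, against 18.2% of all genes. The median log2 fold change was -0.82. Lower were 10 of 12 sinusoidal genes, 20 of 25 pan-endothelial genes and 1 of 3 Wnt ligand genes. Without the second ob/ob E2 library, 19 members were lower, and 1.46% of all genes were. This comparison and that of E2 with vehicle share the 3 E2 livers. Without the 6 members also known from other liver cells, 25 of 34 were lower, with a median of -0.87.

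Markers of other cells were lower in the same comparison at an adjusted p under 0.05 in edgeR, where 7.45% of all genes tested were lower. They were 6 of 12 Kupffer cell and macrophage markers, 6 of 11 hepatocyte markers, 4 of 8 neutrophil markers and 2 of 6 lymphocyte markers. The low granule genes and Ms4a1 named above were among those tested only because of the E2 livers. The summed CPM with PaPE-1 was 384 to 566 for the Kupffer cell list, 98658 to 120402 for the hepatocyte list and 4.27 to 65.1 for the neutrophil list, beside the E2 values given above. For the lymphocyte list it was 1.44 to 4.25 with PaPE-1 and 5.48 to 10.8 with E2. Their part in the lower endothelial values was not tested.

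Among the clearest of these differences was Clec4g at -1.33 (SE 0.13, edgeR adjusted p = 0.000452). Eng was at -1.31 (SE 0.14, edgeR adjusted p = 0.000668), Mmrn2 at -1.25 (SE 0.17) and Aqp1 at -1.11 (SE 0.14). Some genes passed here that had not passed for E2 against vehicle, namely Lyve1 (-0.78), Plvap (-0.57), Icam2 (-0.95), Emcn (-0.87), Adgrl4 (-0.68), Sox17 (-0.98) and Wnt2 (-0.96). Wnt2 had 1.74, 1.97 and 1.4998 CPM with PaPE-1, below all 3 E2 livers. Plvap had 72.2, 77.3 and 49.5 CPM, likewise below all E2 livers. Not passing were Flt4, Ehd3, Flt1, Cd34, Erg, Nos3, Calcrl, Rspo3 and Wnt9b, with log2 values from -0.63 for Nos3 to 0.44 for Wnt9b.

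In DIO liver, E2 gave 0 calls among the 40 genes by edgeR, DESeq2 or limma voom, where 0% of all genes tested passed in edgeR. At an unadjusted p under 0.05, 3 members were higher and 0 lower, against 2.72% and 2.5% of all genes. The groups did not overlap for 3 members that were higher and 2 that were lower, where this held for 4.54% and 5.52% of all genes. The median log2 fold change was 0.15, with 33 members above 0 and 7 below, and the median of all genes was 0.01. The sinusoidal median was 0.24 and the pan-endothelial median 0.12.

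The first DIO E2 liver stood apart from the others. The scores of all members were 0.33, -0.02 and 0.02 in the E2 livers and 0.04, -0.04 and 0.00 in the vehicle livers, so that 1 of 3 E2 livers lay above the vehicle range. Without this library the median log2 fold change was 0.06. The same liver had the highest Kupffer cell score of the DIO livers, with E2 scores of 0.98, 0.39 and 0.50 and vehicle scores of -0.15, -0.03 and 0.18. The Kupffer list had 10 of 12 genes higher at an unadjusted p and 0 past the adjusted threshold, with summed levels of 798 to 1042 CPM and 525 to 696 CPM. Its part in the endothelial values was not tested.

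The 3 genes with an unadjusted p under 0.05 were Clec4g, Aqp1 and Dnase1l3. Clec4g was at 42.8, 40.2 and 44.8 CPM with vehicle and 64.02, 50.7 and 53.7 CPM with E2, all higher, with a log2 fold change of 0.40 (SE 0.14, edgeR adjusted p = 0.888). Aqp1 was at 73.4, 68.6 and 73.01 CPM and 114, 74.7 and 95.04 CPM, again without overlap, with a log2 fold change of 0.40 (SE 0.15). Dnase1l3, named after its values were seen, had 37.6, 35.02 and 37.2 CPM and 67.3, 40.8 and 43.4 CPM, and its log2 fold change was 0.46 (SE 0.19). In each of these genes the first E2 liver was the highest. Egfl7, which E2 raised in ob/ob liver, had 23.98, 19.8 and 24.1 CPM and 19.4, 27.3 and 21.9 CPM in DIO liver. The groups overlapped, and the log2 fold change of 0.01 (SE 0.15) had an interval of -0.32 to 0.35. Eng was at 69.9, 55.9 and 59.8 CPM and 81.8, 65.2 and 65.998 CPM, with a log2 fold change of 0.20 (SE 0.15).

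PaPE-1 in DIO liver also gave 0 calls among the members in edgeR, where 0% of all genes passed. DESeq2 called 1 member higher, Clec4g, where it called 3.82% of all genes higher, and limma voom called 0 members. At an unadjusted p under 0.05, 2 members were higher and 4 lower, against 11.4% and 9.68% of all genes. The PaPE-1 livers lay above the vehicle livers for 4 members and below for 10, which held for 16.4% and 15.8% of all genes. The median log2 fold change was -0.11, against -0.03 for all genes, with sinusoidal genes at -0.05 and pan-endothelial genes at -0.15. With each library's trend on gene length removed, the sinusoidal median turned to 0.063 and the pan-endothelial median was -0.060.

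The genes with the smallest p in this comparison pointed in different directions. Clec4g had 54.3, 53.3 and 69.4 CPM with PaPE-1, above all vehicle livers, with a log2 fold change of 0.47 (SE 0.14, edgeR adjusted p = 0.112). Cldn5 measured 5.36, 5.11 and 6.54 CPM with vehicle and 12.1, 7.24 and 7.29 CPM with PaPE-1. The PaPE-1 livers were all higher, the first of them by far, at a log2 fold change of 0.65 (SE 0.22, edgeR adjusted p = 0.134). Fcgr2b was at 34.2, 37.3 and 38.1 CPM and 51.3, 39.3 and 39.3 CPM, also without overlap, at 0.25 (SE 0.16). Ramp2, at 6.85, 8.03 and 6.64 CPM and 9.43, 7.29 and 9.39 CPM, and Sox18, at 4.93, 4.37 and 5.96 CPM and 6.03, 5.88 and 5.74 CPM, overlapped between groups, with log2 values of 0.27 and 0.21.

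On the lower side, Cdh5, the adhesive protein of endothelial junctions, was at 23.3, 23.2 and 24.05 CPM with vehicle and 14.1, 16.1 and 17.8 CPM with PaPE-1. The PaPE-1 livers were all below the tightly grouped vehicle livers, at a log2 fold change of -0.56 (SE 0.20, edgeR adjusted p = 0.15). Calcrl had 11.3, 13.5 and 9.99 CPM and 7.402, 5.83 and 7.496 CPM, at -0.75 (SE 0.26, edgeR adjusted p = 0.14). Cdh5 and Calcrl passed the threshold in a fit of the compared groups alone and without the first DIO E2 library, fits in which 2.25% and 1.59% of all genes were lower. Sox17 was at 3.45, 3.49 and 3.25 CPM and 2.27, 2.72 and 1.62 CPM, at -0.61 (SE 0.23), and all PaPE-1 livers were lower.

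The remaining genes on the lower side were less distinct. Tek was at 10.1, 10.96 and 8.92 CPM and 8.48, 7.54 and 6.82 CPM, at -0.39 (SE 0.21), and Kdr at 41.1, 31.4 and 32.8 CPM and 26.9, 34.8 and 28.4 CPM, at -0.22 (SE 0.17). Tek levels were all lower with PaPE-1, while Kdr levels overlapped. Wnt9b was at 0.622, 1.48 and 0.873 CPM and 0.478, 0.243 and 0.338 CPM, at -1.50 (SE 0.63, edgeR adjusted p = 0.2), and Rspo3 at 7.47, 8.82 and 7.95 CPM and 6.87, 6.47 and 6.21 CPM, at -0.31 (SE 0.17). Both ligands were lower in all PaPE-1 livers. Smooth muscle markers, which accompany vessels, had log2 fold changes below 0 in 4 of 4 genes in this comparison, with a median of -0.83, and 2 had an unadjusted p under 0.05 while 0 passed the adjusted threshold in edgeR. Their summed CPM was 72.3 to 80.9 with PaPE-1 and 88.4 to 107 with vehicle. Hepatocyte markers pointed in the other direction, with 7 of 11 higher at an unadjusted p under 0.05, 0 past the adjusted threshold in edgeR and a median of 0.35. Their summed CPM was 117164 to 143021 with PaPE-1 and 92275 to 102075 with vehicle. The part of these lists in the endothelial values was not tested.

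PaPE-1 against E2 in DIO liver gave 0 calls among the members in edgeR, where 0.0216% of all genes were higher and 0.0144% lower. DESeq2 called 1 member lower, Cdh5, against 0.763% of all genes, as did edgeR without a filter on low counts, against 0.118%, and limma voom called 0. At an unadjusted p under 0.05, 0 members were higher and 10 were lower, against 8.41% and 8.62% of all genes. Cdh5 had the smallest p, with a log2 fold change of -0.86 (SE 0.20, edgeR adjusted p = 0.175) and an interval of -1.30 to -0.43. It was at 40.1, 22 and 25.2 CPM with E2, where the first liver was far above the others. The other 9 genes were Flt4, Gata4, Wnt9b, Kdr, Tek, Pecam1, Ptprb, Aqp1 and Calcrl, with log2 values from -1.56 to -0.34. The median over all members was -0.26, and without the first DIO E2 library it was -0.12. Without the second DIO E2 library 3 members were lower, Cdh5, Calcrl and Flt4, against 3.08% of all genes.

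The difference in the effect of E2 between DIO and ob/ob liver was tested as an interaction over 18 libraries. In edgeR 0 of 40 members had an adjusted p under 0.05, and 0.00706% of all genes passed in each direction. At p under 0.05 without adjustment, 18 members were lower in DIO, against 6.94% of all genes. The median difference (DIO minus ob/ob) was -0.50 on the log2 scale, and 36 members were below 0. Egfl7 came closest, with -1.31 (SE 0.23) and an interval of -1.80 to -0.82 (edgeR adjusted p = 0.051). Clec4g followed at -0.93 (SE 0.19, edgeR adjusted p = 0.0658), then Oit3 at -0.96 (SE 0.23) and Eng at -0.83 (SE 0.20).

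These calls lay at the edge of the threshold. DESeq2 called 6 members lower in DIO (Egfl7, Clec4g, Oit3, Eng, Fcgr2b and Mmrn2), where it called 0.847% of all genes lower. Without a filter on low counts edgeR called 5 of them, against 0.232% of all genes, and with the length trend removed it called Egfl7, against 0.0141%. The count by limma voom was 0. Without the second DIO E2 library 8 members were lower, against 2.06% of all genes, and without the first ob/ob E2 library 7 were, against 0.553%. Egfl7 also passed without the second DIO PaPE-1 library and without each of the 3 ob/ob PaPE-1 libraries, and Clec4g passed without the third ob/ob PaPE-1 library. For PaPE-1 the difference between the models gave 0 calls among the members by edgeR, DESeq2 or limma voom, and 0% of all genes passed in edgeR. Only Clec4g had an unadjusted p under 0.05 there, higher in DIO at 0.47 (SE 0.19), against 7.29% of all genes.

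Other genes of endothelial signalling, such as VEGF, Notch, BMP and angiopoietin components, were described in the same way. Of 37 listed genes 31 were tested in ob/ob liver, and 6 rose and 2 fell with E2, with a median log2 fold change of 0.32. Over all genes tested, 9.81% rose and 12.3% fell. Vegfa, the main vascular growth factor, rose by 0.77 (SE 0.18) on the log2 scale. The receptor gene Notch4 had a log2 fold change of 0.92 (SE 0.23). The Notch ligand gene Jag1, at -0.85 (SE 0.21), and the BMP receptor gene Bmpr2, at -0.53 (SE 0.12), were the 2 that fell. Of 10 tested genes of haemostasis and adhesion, 0 passed in either direction in edgeR and 1 had an unadjusted p under 0.05, which was F8, the clotting factor made by sinusoidal endothelium, at 0.37 (SE 0.15).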

How the data were processed

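The authors deposited 2 tables of raw counts, 1 per mouse model. Per the labels and the file headers, reads of stranded, poly-A selected libraries were basecalled with CASAVA (1.8.2), aligned to GRCm39 with STAR (2.7.6a) and assigned to RefSeq genes by featureCounts (2.0.0, strand option 2). The paper names other alignment software, and the file headers were followed here. Another 4 deposited tables give fold changes and p-values from the authors' DESeq2 comparisons and were not used. Counts were analysed in R (4.3.3). Genes were kept with filterByExpr of edgeR (4.0.16), scaled by TMM, and tested by robust quasi-likelihood F-tests in edgeR over the 9 libraries of a mouse model, 1 coefficient per group. Differences between models were interactions over 18 libraries. No levels were tested between models, because genotype and diet differed together between them and the labels give no batch. P-values were adjusted by Benjamini-Hochberg over all genes tested, at a threshold of 0.05. SE is the log2 fold change divided by the square root of F, and intervals are at 95%. CPM used TMM library sizes, RPKM the length column, and scores log2 CPM with a prior count of 2, over genes with a group mean of at least 1 CPM. Steps were tested on simulated data. With 3 libraries against 3, an exact permutation test goes no lower than p = 0.1, so none was used. P-values set a difference between groups against the spread between livers, estimated over all groups in the fit.

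Members, gene lists and tests were chosen with earlier results of these data known. Values in every library are given for the 3 genes of each role group with the smallest p for E2 against vehicle in ob/ob liver, the 2 with the smallest p for PaPE-1 against vehicle in DIO liver, and the genes with the highest and lowest RPKM. From other lists up to 4 genes are named by the smallest p for E2 in ob/ob liver, and any other gene was chosen after its values were seen. Alternatives were size factors of DESeq2 (1.42.0) within edgeR, limma (3.58.1) voom, the Wald test of DESeq2, no filter on low counts, the compared groups only, removal of each library's trend on gene length (loess, span 0.5), and each library left out. Figures were drawn with matplotlib.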

Additional observations from a re-analysis of the deposited data

How the results depend on the processing

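With E2 in ob/ob liver, the number of members that rose was 21 to 26 under the other settings and 19 to 25 with a library left out, and 18 of the 24 kept the call under all 15 alternatives. Over all genes tested, 5.52% to 10.6% rose under the other settings and 2.52% to 11% with a library left out. For PaPE-1 against E2 in ob/ob liver the count was 28 to 32 and, with a library left out, 19 to 32, and 18 of 31 kept the call under all. Over all genes, 733 of 13433 (length trend removed) to 1091 of 13433 (DESeq2) were lower under the other settings. With a library left out, 199 of 13645 (second ob/ob E2 library) to 1094 of 13694 (first ob/ob E2 library) were lower. The median over all 40 members kept its sign in each of the 6 comparisons within a model under all these alternatives. Settings that changed a count in DIO liver were DESeq2's Wald test (1 higher for PaPE-1 against vehicle and 1 lower for PaPE-1 against E2), no filter on low counts (1 lower for PaPE-1 against E2) and the compared groups only (2 lower for PaPE-1 against vehicle). With a library left out, members lower for PaPE-1 ranged from 0 to 2 against vehicle and from 0 to 3 against E2. For the difference between models in the effect of E2, the count of members lower in DIO was 6 with DESeq2's Wald test, 5 with no filter, 1 with the length trend removed and 0 to 8 with a library left out. The cause was not tested.

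Removal of the length trend moved the median log2 fold change of the members in DIO liver to -0.040 for PaPE-1 against vehicle and to -0.21 for PaPE-1 against E2. It also turned the sinusoidal median for PaPE-1 against vehicle in DIO liver from -0.05 to 0.063 and the median of the Wnt ligand genes for PaPE-1 against E2 in ob/ob liver from -0.04 to 0.060. With a library left out, the median in DIO liver ranged from 0.060 to 0.22 for E2 against vehicle, from -0.18 to -0.057 for PaPE-1 against vehicle and from -0.33 to -0.12 for PaPE-1 against E2. The sinusoidal minus the pan-endothelial median ranged from 0.062 to 0.22 for E2 against vehicle in DIO liver, from -0.16 to 0.10 for PaPE-1 against E2 in DIO liver and from -0.17 to 0.10 for PaPE-1 against E2 in ob/ob liver, so the order of the classes turned in both comparisons of PaPE-1 with E2. No paired analysis was possible because the numbers in the library names are not shared between groups. Genes with few reads, such as Wnt9b, had the largest SE, and changes of the size of the smallest called ones would not be detected in them.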
